A study of Mus musculus with 8 samples.

Results

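The genes described here are those of the mitochondrial ribosome's own proteins, found as the rows of the deposited expression table whose gene name is Mrpl or Mrps followed by a number and at most 1 letter. The rule found 78 genes among the 55679 of the table, 49 with the large subunit name (Mrpl) and 29 with the small subunit name (Mrps). Their values were compared between left ventricles of wild-type (WT) male C57BL/6J mice that had received angiotensin II (ANG II, a peptide hormone that raises blood pressure) and controls that had received saline. Both were given for 7 days through a pump under the skin, and the dose of ANG II was 1500 ng/kg/min. Each group held 4 libraries, and all mice were of the same genotype, with hearts flushed with saline before the ventricle was taken. Ages were not given in the sources used here, and the labels do not say that each library came from a separate animal. The study's methods call the samples biological replicates and name more of them per group than were analysed here. The p-values measure the spread between these libraries.

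The mitochondrial ribosome (mitoribosome) sits in the mitochondrial matrix, bound to the inner membrane, and translates the few messenger RNAs that the mitochondrial genome encodes, all of them for core subunits of the respiratory chain and the ATP synthase. Its ribosomal RNAs come from the mitochondrial genome, while its proteins are encoded in the nucleus, made in the cytosol and imported. Some of these proteins descend from those of bacterial ribosomes and others were added in the evolution of mitochondria. The heart has a dense mitochondrial network, and inherited defects in MRPL3, MRPL44 and MRPS22 are known to cause cardiomyopathy in infants.

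In the hypertensive-LVH group, as the study calls the ANG II mice (LVH is left ventricular hypertrophy), most mitoribosomal protein genes were slightly lower than in the control group. On the deposited scale most other genes were slightly higher, while under quantile normalization the median over all genes was -0.04. The median log2 fold change was -0.10 over the 48 large subunit genes tested and -0.05 over the 29 small subunit genes, against 0.15 over all 19364 genes tested. Of the 77 tested, 19 fell (15 large and 4 small subunit genes), 4 rose (Mrpl52, Mrpl54, Mrpl20 and Mrps34) and 54 did not pass the test, while over all genes tested 4.91% fell and 28.4% rose. Under median of ratios scaling (dividing each library by its median ratio to a reference) 54 of the 77 fell and 0 rose, against 13.1% and 14.6% of all genes, and the median over all genes was 0.004. The falls were small: the mean fell by 11.8% in the least changed of the 19 genes (Mrpl50) and fell by 22.3% in the most changed (Mrps35). Both sizes are on the deposited scale, and under median of ratios scaling the log2 fold changes of these genes were -0.40 and -0.57, against -0.17 and -0.35 as deposited. Values were FPKM (fragment numbers relative to transcript length and to all mapped fragments), the fold change is on the scale of log2(FPKM + 1), and rose and fell are used for an adjusted p under 0.05 in limma's test with Benjamini-Hochberg adjustment over all genes tested.

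Short stretches upstream of the start of 4 member genes are shown because promoters of mitoribosomal genes are known for sites of ETS family factors, NRF1 and YY1, and because many members held the cores of such sites. RefSeq promoter windows (250 bases before to 50 after a start, build GRCm38.p6) were found for 69 of the 78 genes by symbol, as 75 windows, and 9 genes had no window. The core CCGGAAG of ETS factors, in either strand, was in 34.7% of the members' windows and in 8.86% of all 32851 windows. The YY1 core AAGATGGC was in 16% of the members' windows and 2.75% of all, and the NRF1 core GCGCATGC in 10.7% and 2.71%. Both strands were searched, and the last bases of the ETS core (AAG) are the first of the YY1 core, so that the cores can overlap. At least 1 of the 3 cores was in 50.7% of the members' windows and in 13.3% of all windows. The stretches below come from up to 3 genes for each core, those with the largest absolute fold change among the genes with that core before the start, where the window starts at the outermost RefSeq start and touches no annotated exon. They are written 5′ to 3′ on the strand of the gene, with the core in capitals, as CTTCCGG or GCATGCGC where it lies on the other strand. The first 3 cover positions -60 to -1 from the start and the last -140 to -81. Mrpl52 rose, and Mrpl43, Mrps22 and Mrpl10 did not pass, with log2 fold changes of 0.16, -0.15 and -0.11. Mrpl52 lies on the plus strand (stretch chr14:54426849-54426908), Mrpl43 on the minus strand (chr19:45006443-45006502), Mrps22 on the minus strand (chr9:98601680-98601739) and Mrpl10 on the plus strand (chr11:97041442-97041501).
Mrpl52: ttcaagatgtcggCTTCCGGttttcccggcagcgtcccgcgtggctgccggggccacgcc
Mrpl43: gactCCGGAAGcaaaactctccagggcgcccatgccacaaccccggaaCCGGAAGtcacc
Mrps22: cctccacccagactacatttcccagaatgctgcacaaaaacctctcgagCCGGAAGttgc
Mrpl10: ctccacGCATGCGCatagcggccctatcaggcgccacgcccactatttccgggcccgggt

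The ETS core was held by 3 of the 16 genes that fell and had a window, by 1 of the 2 that rose (Mrpl52) and by 21 of the 50 that did not pass the test. The YY1 core was held by 2, 0 and 10 of these, and the NRF1 core by 1, 0 and 7. A match describes the letters of the window and is not a measured site. A second feature of position that the rule did not use was the head-to-head arrangement. A protein-coding neighbour on the other strand, not overlapping and with its start within 1000 bases, was found for 18 of the 78 genes (23.1%). Of all 22028 protein-coding genes 6.76% had one. Overlapping pairs with near starts, such as Mrpl46 and Mrps11, are not in the count of members. In 17 of these 18 pairs both genes were tested. The member passed an adjusted p of 0.05 in 5 pairs and the neighbour in 5 (4 higher and 1 lower), and in 0 pairs did both pass (limma). Over all genes tested 28.4% rose and 4.91% fell, so counts from 17 pairs cannot tell whether paired genes change together. The closest starts among these pairs were those of Mrpl54 and Apba3, 26 bases apart. Mrpl54 rose by 0.46 on the log2 scale (adjusted p = 0.00677, limma, Benjamini-Hochberg), and the value of Apba3 was -0.06 (adjusted p = 0.456). The members lay on 17 chromosomes, with 11 of them on chromosome 11.

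The libraries were of even depth, with 14455650 to 16564825 fragments recovered from the steps of the FPKM values, and log2 values correlated at 0.988 to 0.99 within a group and at 0.97 to 0.977 between groups. A tested member had 14 to 3724 fragments in a library, and the median over members of the lowest count was 448. Mitochondrially encoded genes took 26.3% to 27.0% of the fragments in the control libraries and 19.2% to 21.8% in the ANG II libraries, and since FPKM is relative to all fragments, the scale bears on every value. Under median of ratios scaling the median over all genes tested moved from 0.15 to 0.004. Fibroblast markers (10 of 10 rose, summed level 579 to 866 FPKM in control and 3626 to 4270 in ANG II) and macrophage markers (10 of 10 rose, 295 to 372 and 667 to 933 FPKM) were higher in ANG II, and of 10 cardiomyocyte markers 5 fell and 5 did not pass (56690 to 58100 and 44410 to 46710 FPKM). All 5 erythroid markers rose (96.8 to 487 and 581 to 2083 FPKM). Of the lesser lists, 5 of 10 endothelial markers rose (577 to 653 and 694 to 826 FPKM), 1 of 3 atrial markers rose (1.16 to 48.8 and 52.5 to 230.5 FPKM, with Sln listed at 0 in control 3), 2 of the 4 skeletal muscle markers tested rose and 1 fell (982 to 1454 and 1007 to 1969 FPKM, with Myh4 listed at 0 in all libraries), and 0 of the 4 adipocyte markers tested passed (0.673 to 7.03 and 0.836 to 13.1 FPKM). After median of ratios scaling, 8 of 10 cardiomyocyte markers fell, 1 endothelial marker rose and 1 fell, 0 atrial markers passed, and the counts of the other marker lists were as before. No list marker of cardiomyocytes, the main cell of the labelled tissue, was at 0. The part of these shifts in the members' values was not tested. In bulk tissue, fewer cells of a type and less RNA per cell cannot be told apart.

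All but 1 of the members were detected. Mrpl42 stood highest, at 151 to 204 FPKM, followed in mean level by Mrpl30 (128 FPKM), the stalk protein Mrpl12 (105), Mrps21 (104) and Mrps23 (99.9). The last 3 of these overlapped in both groups. Mrps18c was lowest among those tested, at 1.90 to 4.59 FPKM, followed by Mrpl43, Mrps6 and Mrps30, whose ranges overlapped. The highest mean was 49.9 times the lowest, 68 members had a mean of at least 10 FPKM and 4 of at least 100 FPKM. Mrpl53 was listed at 0 in all 8 libraries and was not tested. It shares 82.0% of its 50-base words with Gm42688, a gene on the same strand that covers 88.0% of its exons, so its reads could have been assigned elsewhere. The spread between libraries was small, with a median SD of 0.10 on the log2 scale against 0.12 over all genes tested in the members' range of FPKM.

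**Figure D1:**
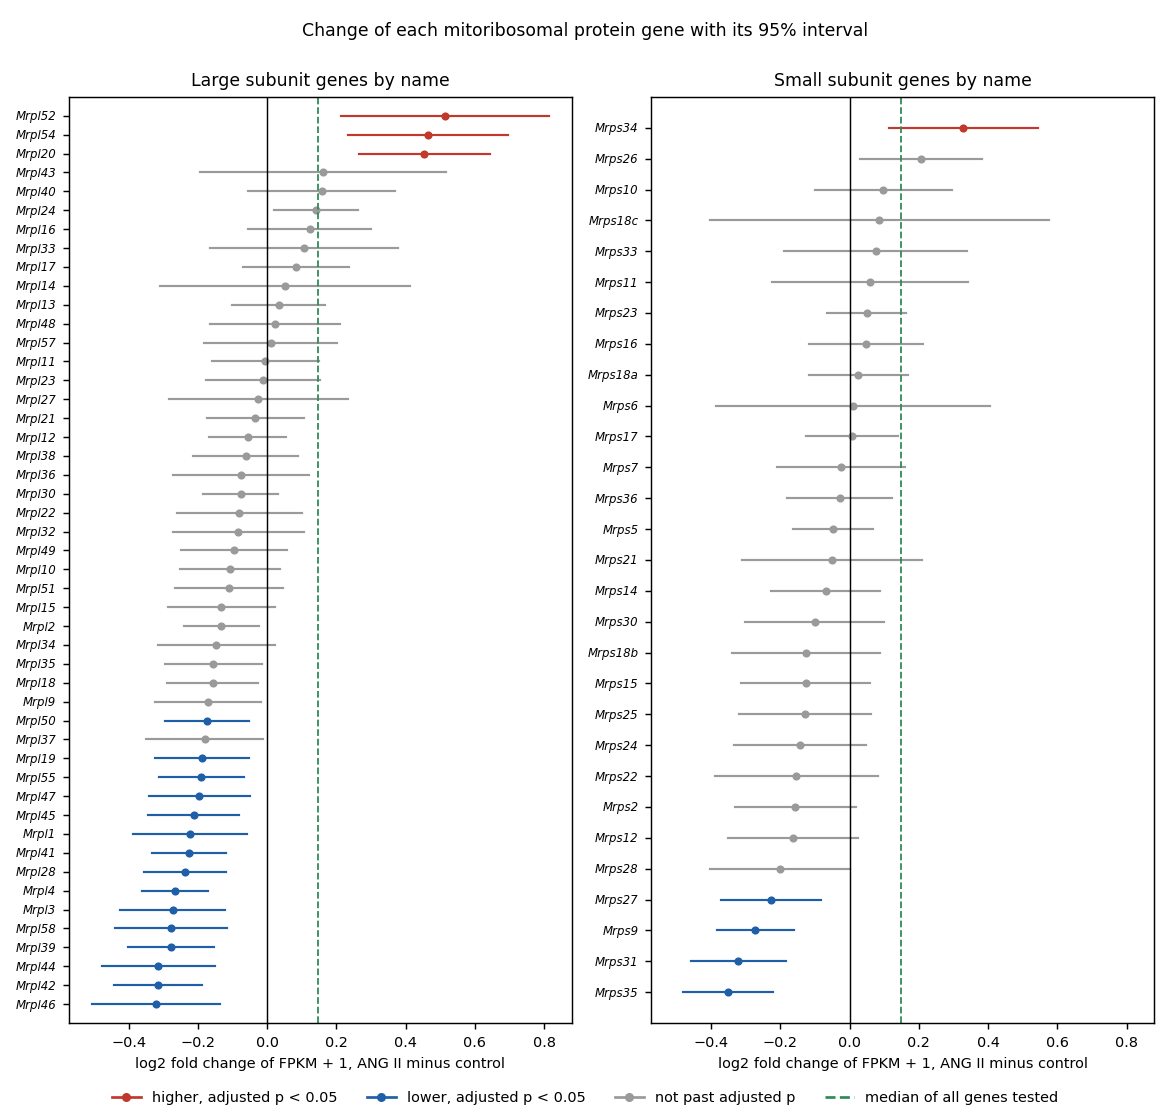
The log2 fold change of FPKM + 1 (ANG II minus control, x axis) for the 48 large (left) and 29 small (right) subunit genes tested, each with limma's 95% interval, with the genes that rose in red, those that fell in blue and those that did not pass the test in grey. The solid line is 0 and the dashed line the median of all genes tested, 0.15, which 70 of the 77 genes lay below.

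Large subunit genes were compared first. The subunit holds the site of peptide bond formation and the tunnel through which the new protein leaves. Of its 48 tested genes, 15 had a lower and 3 a higher value past an adjusted p of 0.05 on the deposited scale, and 34 and 0 after median of ratios scaling. Over all genes tested, 4.91% were lower and 28.4% higher on the deposited scale, and 13.1% and 14.6% after median of ratios scaling. The study's fold change threshold was an absolute log fold change above 0.5, taken here as log2. With it added, 1 large subunit gene, Mrpl52, was called higher and 0 lower, against 14.0% and 1.41% of all genes tested. After median of ratios scaling 0 were called higher and 5 lower, where 4.15% of all genes tested were called lower. The groups did not overlap in 18 genes that were lower and 3 that were higher in ANG II, against 5.06% and 28.7% of all genes tested.

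Among the large subunit genes that fell, Mrpl42 had the highest level. Its FPKM in control 1 to 4 was 204, 203, 196 and 187, and in ANG II 1 to 4 it was 153, 157, 174 and 151. Every ANG II library lay below every control library. The log2 fold change was -0.32 ± 0.06 (SE, n = 4 in each group, limma, adjusted p = 0.00215), and the exact two-sided permutation p was 0.0286, the smallest that 4 against 4 can give.

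Mrpl44, a protein with an RNase III-like fold, had 35.0, 39.3, 36.0 and 32.0 FPKM in the control libraries and 27.3, 29.2, 26.4 and 30.6 FPKM in the ANG II libraries. The groups did not overlap, although control 4 and ANG II 4 came close. It fell by 0.31 ± 0.07 (SE) on the log2 scale (limma adjusted p = 0.00832). Mrpl46, which has a Nudix fold, had the lowest fold change of the subunit, at -0.32 ± 0.08 (SE, limma adjusted p = 0.0138). Its FPKM was 29.8, 29.4, 32.8 and 31.4 in control and 25.3, 22.2, 28.5 and 22.4 in ANG II, with ANG II 3 nearest to the controls. Its value is less certain, since 12.2% of the exons of Mrpl46 lie under Mrps11 on the other strand and the use of strand in counting was not given in the sources used here.

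Mrpl39, related to threonyl-tRNA synthetases, had 46.8, 44.7, 42.3 and 42.1 FPKM in control and 35.1, 34.6, 38.4 and 36.2 FPKM in ANG II. The highest ANG II value lay below the lowest control value. It fell by 0.28 ± 0.06 (SE) on the log2 scale (limma adjusted p = 0.00375). Mrpl58, a peptidyl-tRNA hydrolase built into the ribosome that can free stalled chains, fell by 0.28 ± 0.07 (SE) on the log2 scale (limma adjusted p = 0.0149), with 24.1, 21.2, 22.5 and 20.3 FPKM in control and 19.8, 17.1, 17.1 and 18.0 FPKM in ANG II. Mrpl46, Mrpl42, Mrpl44, Mrpl39 and Mrpl58 had the lowest fold changes of the subunit.

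A further 10 large subunit genes fell and are named because they passed, a choice made after their values were seen. Mrpl3, which reaches towards the peptidyl transferase centre, had 82.3, 82.7, 87.7 and 80.1 FPKM in control and 66.1, 76.6, 61.8 and 70.8 FPKM in ANG II. It did not overlap and had a log2 fold change of -0.27 (limma adjusted p = 0.0111). Mrpl4 had the lowest adjusted p of all members (0.00111, limma), with 74.1 to 76.4 FPKM in control and 61.1 to 65.3 in ANG II. The others were Mrpl1 of the L1 stalk, Mrpl19, Mrpl28, Mrpl41, Mrpl45, which holds the ribosome at the inner membrane near the tunnel exit, Mrpl47 at the exit itself, Mrpl50 and Mrpl55. Their log2 fold changes ran from -0.24 (Mrpl28) to -0.17 (Mrpl50), and in each of them the groups did not overlap. All 19 members that fell, of both subunits, had an exact two-sided permutation p of 0.0286, and 12 of the 19 kept a limma adjusted p under 0.05 in every alternative run.

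The 3 large subunit genes that rose were all short transcripts, with a mean transcript length of 420 bases for Mrpl52, 567 for Mrpl54 and 596 for Mrpl20. Mrpl52 lies at chr14:54426909-54429756 on the plus strand (GENCODE annotation of GRCm38). Its FPKM was 27.5, 33.4, 24.9 and 23.0 in control and 35.3, 37.8, 49.6 and 34.6 in ANG II. The groups did not overlap, but control 2 came close to ANG II 4, and ANG II 3 stood well above the other ANG II libraries. The log2 fold change was 0.51 ± 0.13 (SE, limma adjusted p = 0.0151). Without control 3, control 4 or ANG II 3 in turn, 0 large subunit genes passed both thresholds, and without control 1, control 2, ANG II 1 or ANG II 2 there were 2.

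Mrpl54 had 27.7, 35.4, 29.6 and 29.1 FPKM in control and 39.0, 38.4, 51.2 and 41.3 FPKM in ANG II, and rose by 0.46 ± 0.10 (SE) on the log2 scale (limma adjusted p = 0.00677). ANG II 3 was again highest. Mrpl20, which binds ribosomal RNA early in assembly in bacteria, had 41.2, 36.4, 31.4 and 35.0 FPKM in control and 50.7, 47.9, 54.1 and 45.6 FPKM in ANG II, and rose by 0.45 ± 0.08 (SE) on the log2 scale (limma adjusted p = 0.00266). None of the 3 passed after median of ratios scaling, where their log2 fold changes were 0.29, 0.24 and 0.23 (limma adjusted p = 0.139, 0.124 and 0.0568).

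Values of short transcripts differed between the ANG II libraries. In the 15 members tested with a mean transcript length under 700 bases, the value of ANG II 3 deviated from the mean of its group by a median of 0.16 on the log2 scale, against 0.03 in the 62 longer ones. These medians were -0.11 and -0.04 in ANG II 1, -0.09 and 0.01 in ANG II 2, and -0.03 and -0.01 in ANG II 4. Of the short members 3 rose and 1 fell, and of the longer ones 1 rose and 18 fell. These counts are on the deposited scale, where 28.4% of all genes tested rose and 4.91% fell. ANG II 3 held the highest ANG II value in 30 of the 77 members, against 14 to 18 in the other ANG II libraries. Over the 77 members, Spearman's rho of the log2 fold change with the mean transcript length was -0.21, a description of genes from the same libraries. With trends of GC content and length removed from each library, 33 large subunit genes fell and 2 rose past the adjusted p (limma), and 18 small subunit genes fell and 0 rose, against 16.6% of all genes tested in that fit falling and 13.3% rising.

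Other large subunit genes did not pass. Mrpl30 had 133.5, 130.3, 130.5 and 130.5 FPKM in control and 117.3, 120.1, 130.1 and 130.2 FPKM in ANG II. Its log2 fold change was -0.08 (limma adjusted p = 0.254), although the groups did not overlap, since the highest ANG II value was just under the lowest control value. Mrpl12, the stalk protein that recruits translation factors, had 102 to 112 FPKM in control and 96.5 to 107 in ANG II, with a log2 fold change of -0.06 (95% interval -0.17 to 0.06, limma adjusted p = 0.423). Both genes passed after median of ratios scaling, where the log2 fold change was -0.30 for Mrpl30 and -0.28 for Mrpl12 (limma adjusted p = 0.00166 and 0.00413). Mrpl40, Mrpl43 and Mrpl33 had log2 fold changes of 0.16, 0.16 and 0.11, none of which passed (limma adjusted p = 0.240, 0.476 and 0.547), and each was below 0 after median of ratios scaling (-0.06, -0.02 and -0.09).

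**Figure D2:**
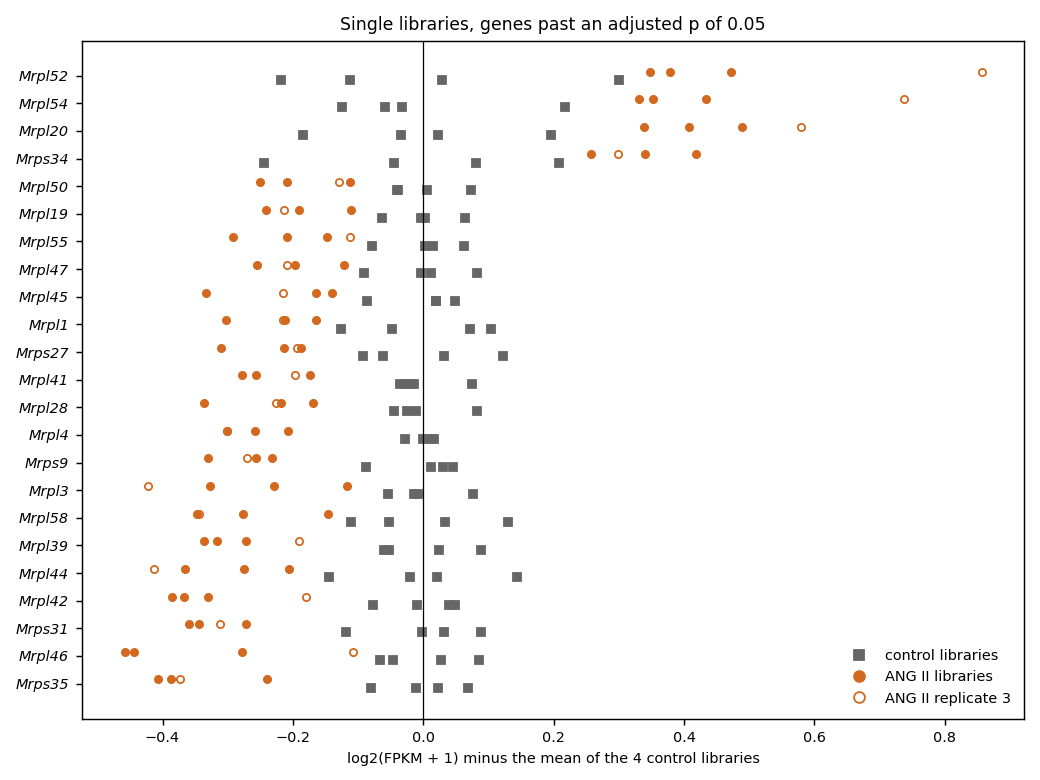
Each library's log2(FPKM + 1) minus the mean of the 4 control libraries (x axis) for the 23 members past an adjusted p of 0.05, with control libraries as grey squares and ANG II libraries as orange circles, ANG II 3 open. In all 19 genes that fell the ANG II libraries lie to the left of every control library, and ANG II 3 lies farthest to the right in Mrpl52, Mrpl54 and Mrpl20.

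The small subunit binds the messenger RNA and reads its codons. Of the 29 genes named for it, 4 had lower values past an adjusted p of 0.05 (Mrps35, Mrps31, Mrps9 and Mrps27), 1 had higher values (Mrps34) and 24 did not pass, against the same 4.91% and 28.4% of all genes tested. On the median of ratios scale 20 were lower and 0 higher, against 13.1% and 14.6% of all genes tested. The fold change threshold was passed by 0 of the 29 in limma's fit. The groups did not overlap in 4 lower and 2 higher genes, against 5.06% and 28.7% of all genes tested. Without control 4, which had the lowest control value in 37 of the 77 members, 8 small subunit genes passed the adjusted p, 7 of them lower. The shares of all genes are from fits of all 8 libraries and were not taken from this one.

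Mrps35, a mitochondria-specific protein of the small subunit, had the largest fall of all members. Its FPKM was 30.4, 28.3, 31.5 and 29.7 in control and 22.7, 25.2, 22.9 and 22.4 in ANG II. All ANG II libraries lay well below the controls, with ANG II 2 the highest among them. The log2 fold change was -0.35 ± 0.06 (SE, limma adjusted p = 0.00142).

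Mrps31 had 20.6, 20.1, 21.4 and 18.4 FPKM in control and 15.5, 16.5, 16.0 and 15.6 in ANG II, and fell by 0.32 ± 0.06 (SE) on the log2 scale (limma adjusted p = 0.00299). Mrps9, a homologue of a bacterial protein of the subunit's head, had 48.3, 43.9, 47.1 and 47.7 FPKM in control and 37.0, 38.9, 38.6 and 39.6 FPKM in ANG II, and fell by 0.27 ± 0.05 (SE) on the log2 scale (limma adjusted p = 0.00233). In both genes the ANG II libraries were close together and below every control. Mrps27, a pentatricopeptide repeat protein, had 20.3, 23.8, 22.2 and 20.8 FPKM in control and 19.0, 18.6, 18.9 and 17.4 FPKM in ANG II, and fell by 0.23 ± 0.06 (SE) on the log2 scale (limma adjusted p = 0.0222). It did not pass without control 3 (limma adjusted p = 0.0580) or without ANG II 4 (0.0554), and 24.2% of its exons lie under a gene of the other strand.

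Mrps34, which the small subunit needs for the stability of its ribosomal RNA, had 11.8, 13.0, 14.3 and 10.2 FPKM in control and 16.7, 15.8, 15.3 and 14.8 in ANG II. The groups did not overlap, by a narrow margin between control 3 and ANG II 4. The log2 fold change was 0.33 ± 0.10 (SE, limma adjusted p = 0.0245), and it did not pass without control 1, ANG II 1 or ANG II 2 (limma adjusted p = 0.0606, 0.0733 and 0.0576). It shares 34.2% of its 50-base words with Nme3, which makes the value uncertain, and 63.4% of its exons lie under Mapk8ip3 on the other strand. Mrps26 also did not overlap, with 8.04 to 9.63 FPKM in control and 9.94 to 11.6 in ANG II, but its log2 fold change of 0.21 did not pass (limma adjusted p = 0.0722), and it was -0.0018 after median of ratios scaling.

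The names do not match the place of every protein. Mrps30 and Mrps18a belong to the large subunit in mammals, and Mrps36 is now known as a part of the oxoglutarate dehydrogenase complex of the citric acid cycle. Mrps30 had 5.36 to 6.26 FPKM in control and 4.59 to 5.71 in ANG II, with a log2 fold change of -0.10 (limma adjusted p = 0.421). Mrps18a, Mrps18b and Mrps18c, which are related in sequence, had log2 fold changes of 0.03, -0.13 and 0.09, none of which passed (limma adjusted p = 0.796, 0.352 and 0.800). Their levels lay apart, with Mrps18a at 44.8 to 55.3 FPKM, Mrps18b at 10.6 to 15.3 and Mrps18c at 1.90 to 4.59. Mrps36 had 53.8 to 58.0 FPKM in control and 50.3 to 61.4 in ANG II (log2 fold change -0.03, limma adjusted p = 0.782). Other small subunit genes named for their level or fold change, Mrps10, Mrps33, Mrps23, Mrps6, Mrps21, Mrps15 and Mrps28, had log2 fold changes from -0.20 (Mrps28) to 0.10 (Mrps10), with overlapping groups.

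The members were also divided by whether the protein takes the place of a bacterial counterpart in the ribosome. Mrps18c was counted with the bacterial homologues, and its relatives Mrps18a and Mrps18b, which sit elsewhere, with the mitochondria-specific genes. Of the 45 genes with a bacterial homologue, 7 fell and 1 rose (Mrpl20), with a median log2 fold change of -0.07. Of the 30 tested mitochondria-specific genes, 11 fell and 3 rose (Mrpl52, Mrpl54 and Mrps34), with a median of -0.12. After median of ratios scaling 31 of the 45 and 21 of the 30 fell, and 0 of either class rose. The difference between these classes was not tested. Among the 9563 genes tested in the members' range of mean FPKM the median was 0.19, with 618 falling and 3818 rising. Of the 19 members that fell, 14 shared under 10% of their 50-base words with another gene and had under 10% of their exons under a gene of the other strand.

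The number of members past the test rested on the scale. After median of ratios scaling, 34 of the 48 large and 20 of the 29 small subunit genes were lower past an adjusted p of 0.05 (limma, Benjamini-Hochberg) and 0 were higher, against 13.1% lower and 14.6% higher of all genes tested. On this scale 5 large and 2 small subunit genes also passed the fold change threshold, all lower, against 4.15% of all genes, and 53 members had ANG II values below every control value, against 13.9%. All 19 genes that fell on the deposited scale also fell on this one, and none of the 4 that rose passed. The median log2 fold changes became -0.32 for the large and -0.28 for the small subunit. Taken from the all-gene median, this was -0.33 and -0.28, against -0.25 and -0.20 on the deposited scale.

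The summed level showed the same dependence. The FPKM of all large subunit genes added to 2079, 2043, 2045 and 1948 in control and to 1823, 1879, 1963 and 1867 in ANG II, where ANG II 3 lay above control 4. The mean sum fell by 7.17%. The small subunit sum was 913, 916, 910 and 847 FPKM in control and 829, 826, 904 and 862 FPKM in ANG II, and its mean fell by 4.62%, with overlapping groups. After median of ratios scaling the mean sums fell by 20.8% (large) and fell by 18.6% (small), and neither overlapped. The ratio of the large to the small subunit sum was 2.23 to 2.30 in control and 2.17 to 2.28 in ANG II.

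**Figure D3:**
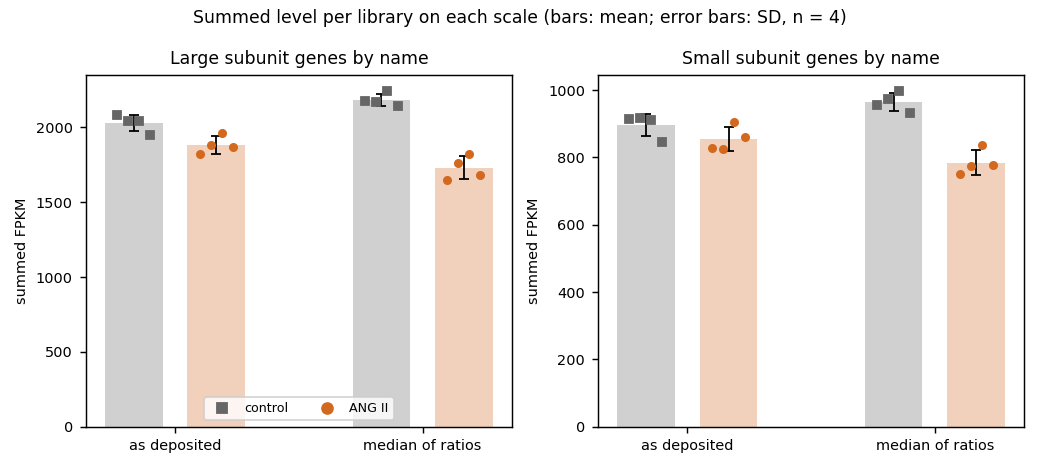
Summed FPKM (y axis, from 0) of the large (left) and small (right) subunit genes in each of the 4 control (grey squares) and 4 ANG II (orange circles) libraries, as deposited and after median of ratios scaling, with the group mean as a bar and the SD as an error bar. The large subunit mean was 2028 against 1883 as deposited and 2182 against 1728 after scaling.

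Other genes of the pathway were counted in the same limma fit, over all genes tested and against the same 28.4% rising and 4.91% falling. After median of ratios scaling, where 14.6% of all genes rose and 13.1% fell, 0 genes rose in any of these lists but the regulators, and 3 of the 5 proteins with other names, 8 of the 11 translation factors, 16 of the 25 assembly and modification factors, 11 of the 15 transcription and maturation genes and 10 of the 13 mitochondrially encoded messenger RNAs fell. Mitoribosomal proteins with other names numbered 5. Dap3, a GTP-binding protein of the small subunit, had 69.1, 66.3, 75.3 and 71.1 FPKM in control and 59.7, 61.7, 59.3 and 59.5 FPKM in ANG II and fell by 0.23 on the log2 scale (adjusted p = 0.00638). Ptcd3, a pentatricopeptide repeat protein of the same subunit, had 102, 94.8, 116 and 107 FPKM in control and 81.7, 86.6, 81.3 and 78.5 in ANG II and fell by 0.35 (adjusted p = 0.00257). Both were without overlap, while Aurkaip1, Chchd1 and Gadd45gip1 did not pass (-0.01, 0.04 and 0.06), the last of them at under 0.3 FPKM in every library.

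Of the 11 mitochondrial translation factors tested, 6 fell and none rose. Tufm, the elongation factor that brings transfer RNAs to the ribosome, had 196, 201, 214 and 197 FPKM in control and 154, 184, 144 and 146 FPKM in ANG II. Its log2 fold change was -0.37 (limma adjusted p = 0.00507), and it shares 54.5% of its 50-base words with another gene. Gfm1, which moves the ribosome along the messenger, fell by 0.31 (limma adjusted p = 0.00744), and the release factors Mtrf1 and Mtrf1l, the recycling factor Mrrf and the initiation factor Mtif2 fell by 0.26, 0.24, 0.20 and 0.15 on the log2 scale. Mtres1 was not analysed here.

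Assembly and ribosomal RNA modification factors gave 3 that fell and 1 that rose among 25. Mettl17, an assembly factor of the small subunit, had a log2 fold change of -0.38 (limma adjusted p = 0.0043), Gtpbp10, a GTPase of large subunit assembly, of -0.33 (0.00381) and C1qbp of -0.19 (0.0232). Mrm1, a methyltransferase for large subunit ribosomal RNA, had 2.01, 2.38, 16.8 and 2.58 FPKM in control and 15.2, 13.7, 13.3 and 14.8 FPKM in ANG II. Control 3 lay above every ANG II library, and the other 3 controls far below. Its log2 fold change was 1.60 ± 0.48 (SE, limma adjusted p = 0.029), and it did not pass after median of ratios scaling (limma adjusted p = 0.0618). Of the 15 genes of mitochondrial transcription and RNA maturation tested, 4 fell and none rose. They were Lrpprc, which stabilises mitochondrial messenger RNAs (-0.36, limma adjusted p = 0.00389), Hsd17b10, a subunit of the mitochondrial ribonuclease P (-0.32, 0.000586), Tefm, the elongation factor of the mitochondrial polymerase (-0.31, 0.00572) and Mterf2 (-0.36, 0.025).

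The messenger RNAs that the mitoribosome translates were counted too. Of the 13 mitochondrially encoded messenger RNAs, 8 fell and 5 did not pass, with a median log2 fold change of -0.45. Of the 8, 4 (mt-Co2, mt-Co3, mt-Atp6 and mt-Nd4l) share nearly all their 50-base words with other genes, which makes their values uncertain. The number that fell ran from 3 (no filter on low values) to 10 over the alternatives that kept these genes, and mt-Nd2, mt-Nd4 and mt-Nd5 did not pass under quantile normalization. That method gives each rank the same value in every library, so it cannot show a fall of genes that stay at the top ranks. mt-Nd1, a subunit of complex I, had 27130, 26950, 27620 and 28210 FPKM in control and 18750, 18830, 21890 and 18170 FPKM in ANG II (log2 fold change -0.51, limma adjusted p = 0.00883). No ANG II library reached the controls. Under quantile normalization its limma adjusted p was 0.376, to which the same limit of the method applies. mt-Co3 had the lowest fold change (-0.79, limma adjusted p = 0.0107), and was listed at under 250 FPKM with 99.9% of its words shared.

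Among 10 regulators linked to mitoribosomal genes, 3 rose and 1 fell, while after median of ratios scaling 1 rose (Myc) and 3 fell (Ppargc1a, Gabpa and Esrra). Ppargc1a, a coactivator of mitochondrial gene expression, had 73.8, 50.9, 68.0 and 95.7 FPKM in control and 35.7, 34.6, 40.9 and 38.2 FPKM in ANG II. Its groups did not overlap, although the controls spread widely, and it fell by 0.90 ± 0.16 (SE) on the log2 scale (limma adjusted p = 0.0018). Myc, a growth-related transcription factor, had 2.42, 2.12, 2.08 and 2.36 FPKM in control and 5.23, 5.94, 4.18 and 4.13 FPKM in ANG II (log2 fold change 0.84 ± 0.12, SE, limma adjusted p = 0.000585). Pprc1, a coactivator related to Ppargc1a, and Yy1 rose by 0.34 and 0.28 (limma adjusted p = 0.00816 and 0.00783), and neither passed after median of ratios scaling. Nrf1 and Gabpa, the factors for the NRF1 and ETS cores, had log2 fold changes of 0.28 and -0.11 and did not pass (limma adjusted p = 0.108 and 0.121). After median of ratios scaling the values were 0.07 and -0.33, of which that of Gabpa passed (limma adjusted p = 0.000645).

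**Figure D4:**
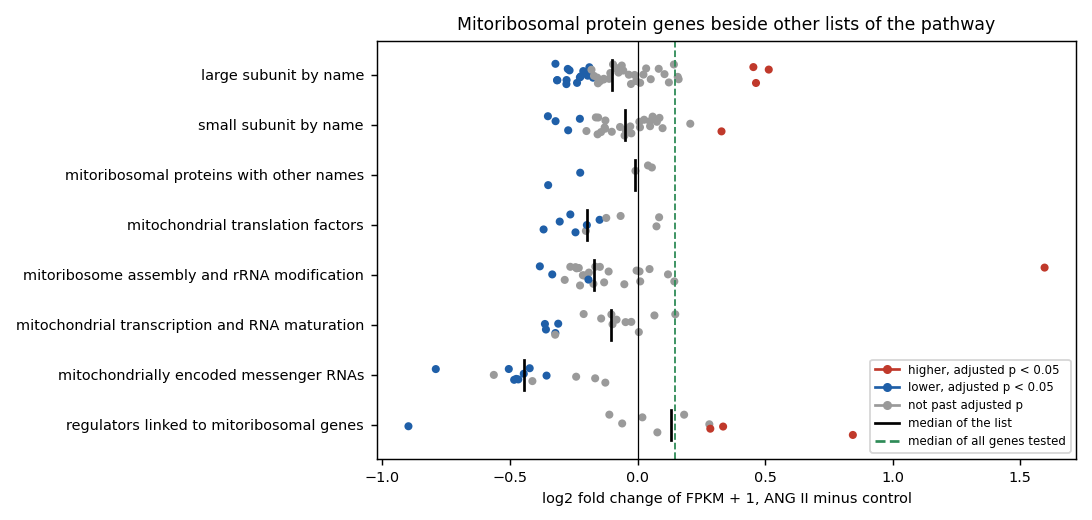
The log2 fold change of FPKM + 1 (ANG II minus control, x axis) of each tested gene of the members and of 6 other lists (rows), with genes that rose in red, those that fell in blue, the others in grey, and each list's median as a black bar. The median of every list lies below the dashed line, the median of all genes tested (0.15), with the regulators nearest to it at 0.13 and the mitochondrially encoded messenger RNAs farthest at -0.45.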

How the data were processed

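RNA-seq was measured in left ventricles of 4 ANG II and 4 control libraries, grouped by their treatment labels. The authors deposited FPKM values, 1 column per library without pooling, and 0 sample columns were left unused. The submitters' processing notes name HISAT, Bowtie2 and RSEM, without roles or versions. The genome build, annotation and use of strand were not given in the sources used here, and the extraction protocol in the labels names another cell type. Per the labels, libraries were made from RNA selected by its poly(A) tail.

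After a filter at a mean of 0.1 FPKM, 19364 genes were tested on log2(FPKM + 1) with limma 3.58.1 in R 4.3.3 (lmFit, eBayes with a variance trend, two-sided, Benjamini-Hochberg). The thresholds were the study's (adjusted p under 0.05, absolute log fold change above 0.5). The study does not state the base of the logarithm, and log2 was used here. A fold change on this scale understates that of low genes. Single values had an exact permutation test over 70 allocations. Whole fragments were recovered from the steps of FPKM with mean transcript lengths of GENCODE M21, within 0.05 of a whole number for 97.6% to 98.1% of the values under 60 fragments in genes of several exons. PCR copies are not independent molecules, so fragment numbers speak of counting error only. Shared words of 50 bases and overlapping genes were taken from the same annotation, in which 55141 of 55679 genes were found.

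The members and all lists were chosen with earlier results of these data known, so no list was tested as a set. Genes were named by a rule: in each subunit the 5 highest and 5 lowest fold changes, the 3 highest and 3 lowest levels, called genes, genes whose name and place differ, untested genes, and from longer lists up to 3 per direction by call or p. The script was tested on simulated data. Alternatives were other pseudocounts, filters, scalings, thresholds, a replicate block, leaving out each library, voom on recovered fragments and removal of GC content and length trends. Same-numbered libraries of the groups correlated in their deviations at -0.03 to 0.06, so the numbers were not taken to pair them.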

Additional observations from a re-analysis of the deposited data

Results flagged for a closer look

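In 5 of the 78 groups of 4 libraries tested, 1 library lay farther from the others than Dixon's critical ratio at the 95% level, and chance flags about 1 in 20 groups. Control 1 was high for Mrpl30 (133.49 FPKM, the nearest 130.50) and control 2 was high for Mrpl40 (21.88 FPKM, the nearest 19.23). Control 4 was low for Mrps28 (35.23 FPKM, the nearest 43.95), and also for the summed small subunit (847.1 FPKM, the nearest 909.8). Without control 4, the log2 fold change of Mrps28 was -0.28 and passed (limma adjusted p = 0.0232), against -0.20 with it. ANG II 3 was high for Mrps21 (132.62 FPKM, the nearest 93.81).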

How the results depend on the processing

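Every alternative kept the direction of both subunits' medians. Under median of ratios scaling, quantile normalization, removal of the mitochondrially encoded genes before rescaling and removal of GC content and length trends (chosen after seeing the data), in this order, large subunit genes past both thresholds numbered 5, 3, 0 and 4 (1 as deposited), those past the adjusted p 34, 33, 30 and 35 (18), and their median log2 fold change was -0.32, -0.30, -0.21 and -0.31. The median over all genes was 0.0040, -0.040, 0.076 and -0.054 (0.15 as deposited), with 13.1%, 15.3%, 7.64% and 16.6% of genes lower past the adjusted p and 14.6%, 12.6%, 19.8% and 13.3% higher. Relative to it the large subunit medians were -0.33, -0.26, -0.29 and -0.26 (-0.25). Small subunit genes past both thresholds numbered 2, 2, 0 and 2 (0 as deposited), those past the adjusted p 20, 17, 9 and 18 (5), with medians of -0.28, -0.29, -0.16 and -0.26. With a fold change threshold of 0.25, 10 large and 4 small subunit genes were called, Mrpl52, Mrpl54, Mrpl20 and Mrps34 higher and the others lower. With a threshold of 1, 0 of each were called. Shares of all genes at these 2 thresholds are not given here, so the counts have no background beside them. Leaving out each library in turn gave 0 to 2 large and 0 small subunit genes past both thresholds, 12 to 19 and 4 to 8 past the adjusted p, and medians of -0.13 to -0.07 and -0.11 to -0.03. Shares of all genes are not given for these fits. Pseudocount, filter, variance trend and limma's voom on recovered fragments (chosen after seeing the data) moved none of these counts by over 1.5 times. Same-numbered libraries did not deviate together (replicate 2 alone correlated best with its own number), and with the replicate number as a block 13 large and 5 small subunit genes passed the adjusted p, and 1 and 0 both thresholds.

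None of the 23 members that passed changed direction under any alternative run. Of the 24 members above 0, 20, 20, 14 and 20 turned negative under median of ratios, quantile, removal of mitochondrially encoded genes and removal of trends, and leaving out 1 library turned 15 of the 77. Among the 32 tested members named by the rule, under median of ratios, quantile, removal of mitochondrially encoded genes and removal of trends in this order, the log2 fold change turned negative in Mrpl57 (-0.20, -0.24, -0.093 and -0.19), Mrps6 (-0.18, -0.31, -0.083 and -0.17, and -0.0060 with voom), Mrps18a (-0.20, -0.14, -0.085 and -0.22), Mrps23 (-0.18, -0.12, -0.063 and -0.15), Mrps33 (-0.15, -0.10, -0.034 and -0.059), Mrps18c (-0.090, -0.24, -0.00040 and -0.016) and Mrps10 (-0.11, -0.15, -0.0056 and -0.11). Under all but the third of these settings it turned in Mrpl33 (-0.091, -0.20 and -0.071), Mrpl40 (-0.062, -0.074 and -0.033), Mrpl43 (-0.022, -0.16 and -0.080) and Mrps26 (-0.0018, -0.057 and -0.027). Leaving out 1 library moved the value across 0 in 6 of these 32, Mrpl57 (-0.038 to 0.074), Mrps6 (-0.13 to 0.13), Mrps18c (-0.11 to 0.21), Mrps18a (-0.024 to 0.075), Mrps33 (-0.039 to 0.15) and Mrps36 (-0.086 to 0.0091). The cause was not tested. The 95% intervals reached a median of 0.16 to either side on the log2 scale, which limits the size of change that a single member can show.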
